A study of Mus musculus with 48 samples.

Results

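The Gimap genes encode the GTPases of immunity-associated proteins, and their 8 mouse members Gimap1, Gimap3, Gimap4, Gimap5, Gimap6, Gimap7, Gimap8, and Gimap9 lie side by side on chromosome 6. The members were taken by gene name, 8 of the 54735 genes counted, in 24 RNA-seq libraries. The family was picked with earlier results of these data known, in which members had been called lower in Il1rl1-/- than in WT pre-RPMs, so that comparison is given here as a description. The libraries came from 3 splenic populations on the path to red pulp macrophages (RPMs), the macrophages that clear aged red blood cells and recycle their iron. Monocytes were sorted as Ly6Glo CD11bhi F4/80- cells, pre-RPMs as Ly6Glo CD11bhi F4/80lo cells, and RPMs as Ly6Glo CD11blo/- F4/80hi cells, and the flow cytometry of the study gated these within cells low in CD11c, NK1.1, and side scatter. NK1.1 was stained with antibody clone PK136, which, as background, does not bind the form of the receptor that Balb/c mice carry. The antibodies listed by the study also include one to CD335, a receptor of natural killer cells, which the stated gates do not name. All mice were male, 10 weeks old, and of the Balb/c strain or background. They were WT mice or mice labelled Il1rl1-/-, which should lack the IL-33 receptor in every cell, with 4 mice per genotype and 1 library per cell type and mouse.

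GIMAP proteins are guanine nucleotide-binding proteins that share an AIG1-type GTPase domain, and several sit on intracellular membranes such as the endoplasmic reticulum, mitochondria, and lysosomes. They are known chiefly from lymphocytes, where they govern survival. Loss of GIMAP5 leaves rats and mice lymphopenic, GIMAP1 is needed for mature T and B cells, GIMAP4 speeds the death of activated T cells, GIMAP6 binds an autophagy protein of the GABARAP family, and GIMAP8 carries more than 1 GTPase domain.

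Libraries held 3562367 to 6559454 counts, the gene Gm42418 took 24.4 to 38.8% of them, and 3 counts equalled 0.451 to 0.896 CPM, the counts scaled to library size, after TMM scaling. Il1rl1 went against the genotype labels in 2 of the 3 populations. Its counts in mice 1 to 4 were 28, 19, 12, and 13 in WT monocytes and 51, 73, 71, and 64 in Il1rl1-/- monocytes, 18, 15, 13, and 24 in WT pre-RPMs and 50, 76, 42, and 65 in Il1rl1-/- pre-RPMs, and 5, 9, 7, and 13 in WT RPMs and 1, 7, 3, and 6 in Il1rl1-/- RPMs. Il1rl1 had a log2 fold change of 2.13 ± 0.23 (adjusted p = 0.00882) in Il1rl1-/- against WT monocytes and 1.52 ± 0.20 (adjusted p = 0.00107) in pre-RPMs. Whether these reads fall outside the deleted part was not tested, so genotype below means the libraries labelled Il1rl1-/- or WT.

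On GRCm38 the cluster ran from base 48647234 to base 48770851 of chromosome 6, a stretch of 123618 bases, in the order Gimap8, Gimap9, Gimap4, Gimap6, Gimap7, Gimap1, Gimap5, Gimap3. Gimap6 and Gimap3 are on the minus strand and the other 6 members on the plus strand. A readthrough gene, Gm28053, shares 3.50% of the exon bases of Gimap7, 6.40% of Gimap1, and 3.70% of Gimap5 on the same strand, and reads there were dropped by the counting, which makes these 3 levels uncertain by that much. Gm28053 itself had at most 9 counts in a library. The antisense gene Gimap1os overlaps 1107 bases of Gimap1 and was counted by strand.

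Because the members moved together across cell types, the 250 bases before the start of transcription were searched in RefSeq's promoters (GRCm38.p6), which held all 8 members, Gimap8 with 2 starts. The letters searched, on both strands, were GATAA, the core bound by GATA factors, CCGGAAG and ACAGGAAG, forms of the ETS site, and TGTGGT, the core bound by RUNX factors, and no match overlapped another in the members. GATAA was found before 2 members (Gimap4, Gimap6) and in 22.6% of the 32851 promoters, TGTGGT before 3 members (Gimap4, Gimap7, Gimap1) and in 14.0% of promoters, ACAGGAAG before 1 member (Gimap5) and in 2.9% of promoters, and CCGGAAG before no member and in 6.9% of promoters. No set of letters searched was common to the members. Shown 5′ to 3′ on the gene's strand, with matches in capitals, are Gimap4, the member with the most reads per length, Gimap5, which held the ETS letters, and Gimap3, which changed least from WT monocytes to RPMs and held no match:
Gimap4 (chr6:48684328-48684577, plus strand): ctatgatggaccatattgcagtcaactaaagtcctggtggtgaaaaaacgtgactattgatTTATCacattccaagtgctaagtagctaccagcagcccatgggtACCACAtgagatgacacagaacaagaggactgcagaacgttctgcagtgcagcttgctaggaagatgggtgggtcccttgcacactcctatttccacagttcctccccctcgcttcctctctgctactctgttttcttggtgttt
Gimap5 (chr6:48745947-48746196, plus strand): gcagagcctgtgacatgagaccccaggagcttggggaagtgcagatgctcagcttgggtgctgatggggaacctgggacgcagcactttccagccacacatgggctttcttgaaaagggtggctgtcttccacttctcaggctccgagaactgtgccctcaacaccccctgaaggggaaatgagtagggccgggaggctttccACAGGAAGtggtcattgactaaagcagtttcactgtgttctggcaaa
Gimap3 (chr6:48770852-48771101, minus strand): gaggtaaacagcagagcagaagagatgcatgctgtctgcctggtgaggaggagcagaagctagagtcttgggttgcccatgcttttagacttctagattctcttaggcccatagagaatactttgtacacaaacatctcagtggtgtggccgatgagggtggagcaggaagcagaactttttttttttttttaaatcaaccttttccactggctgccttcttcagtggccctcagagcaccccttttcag

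Family transcripts were highest in the monocyte gate, several-fold lower in pre-RPMs, and at overlapping levels in pre-RPMs and RPMs. The summed CPM of the 8 members in mice 1 to 4 was 454, 499.7, 157, and 311 in WT monocytes, 51.1, 64.3, 52.1, and 55.2 in WT pre-RPMs, and 64.5, 104, 22.3, and 31.1 in WT RPMs. In the Il1rl1-/- libraries it was 429, 328, 151, and 206 in monocytes, 16.4, 33.9, 17.9, and 15.5 in pre-RPMs, and 46.6, 20.03, 14.97, and 24.6 in RPMs. In both genotypes every monocyte library stood above every pre-RPM and RPM library, whereas pre-RPMs and RPMs overlapped. The group means were 355 ± 155, 55.7 ± 5.99, and 55.4 ± 37.1 CPM in WT monocytes, pre-RPMs, and RPMs and 279 ± 125, 20.9 ± 8.70, and 26.6 ± 13.9 CPM in the corresponding Il1rl1-/- groups (SD, n = 4 each). In order of the mean, WT monocytes were followed by Il1rl1-/- monocytes, WT pre-RPMs, WT RPMs, Il1rl1-/- RPMs, and Il1rl1-/- pre-RPMs, and only Il1rl1-/- monocytes and WT pre-RPMs were neighbours whose ranges did not overlap. In such sorted populations, fewer cells of a type and less RNA per cell cannot be told apart.

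Of the members linked to cell survival, Gimap4 promotes the death of activated T cells, Gimap5 keeps lymphocytes alive, and Gimap3 is its close mouse relative. Values are CPM, scaled by TMM, for mice 1 to 4 in turn. Gimap4 was at 124, 140.0, 41.9, and 78.2 CPM in WT monocytes, 10.04, 13.4, 12.5, and 7.41 CPM in WT pre-RPMs, and 11.1, 18.2, 5.63, and 6.26 CPM in WT RPMs. In Il1rl1-/- mice Gimap4 was at 96.4, 80.4, 36.7, and 56.6 CPM in monocytes, 3.09, 5.11, 2.99, and 1.12 CPM in pre-RPMs, and 7.43, 2.95, 2.86, and 5.13 CPM in RPMs. Both monocyte groups were clear of all other libraries. Gimap5 was at 36.1, 37.7, 11.3, and 31.1 CPM in WT monocytes, 7.004, 4.22, 2.95, and 4.06 CPM in WT pre-RPMs, and 2.13, 6.75, 1.88, and 1.62 CPM in WT RPMs. Gimap5 in the Il1rl1-/- libraries was at 38.3, 26.2, 11.46, and 16.3 CPM in monocytes, 0.475, 1.70, 0, and 1.68 CPM in pre-RPMs, and 3.15, 0.657, 0.660, and 1.497 CPM in RPMs. Monocytes lay above all other libraries here as well, and a count of 0 in Il1rl1-/- pre-RPMs of mouse 3 allows up to 0.896 CPM, counting error only. Gimap3 was at 53.5, 69.4, 19.1, and 40.5 CPM in WT monocytes, 8.64, 11.3, 7.38, and 11.2 CPM in WT pre-RPMs, and 16.6, 25.4, 3.76, and 6.26 CPM in WT RPMs. For Gimap3 the Il1rl1-/- values were 54.1, 40.1, 18.6, and 22.7 CPM in monocytes, 3.09, 3.58, 2.99, and 2.99 CPM in pre-RPMs, and 10.8, 3.61, 1.98, and 4.92 CPM in RPMs. The highest WT RPM value of Gimap3 exceeded the lowest WT monocyte value, the 1 member for which those groups overlapped, and its Il1rl1-/- pre-RPM values lay between 2.99 and 3.58 CPM.

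Gimap6, the partner of an autophagy protein, and Gimap1, needed for mature lymphocytes, followed the same pattern. Gimap6 was at 89.1, 85.7, 29.5, and 51.9 CPM in WT monocytes, 11.2, 9.22, 9.10, and 11.9 CPM in WT pre-RPMs, and 15.3, 17.2, 3.49, and 4.17 CPM in WT RPMs. Its Il1rl1-/- values were 77.4, 58.5, 31.3, and 38.0 CPM in monocytes, 3.56, 6.13, 2.69, and 3.37 CPM in pre-RPMs, and 6.30, 4.60, 3.74, and 5.99 CPM in RPMs. Gimap6 monocyte values exceeded every pre-RPM and RPM value of the same genotype. Gimap1 was at 36.1, 47.1, 15.7, and 30.2 CPM in WT monocytes, 3.27, 6.32, 5.90, and 7.17 CPM in WT pre-RPMs, and 5.53, 8.59, 0.805, and 4.41 CPM in WT RPMs. In the Il1rl1-/- group Gimap1 reached 48.7, 35.5, 18.8, and 20.2 CPM in monocytes, 1.42, 5.11, 2.09, and 2.06 CPM in pre-RPMs, and 6.98, 1.97, 2.86, and 0.428 CPM in RPMs. For Gimap1 they did too, and its RPM values spread widely in both genotypes. The other members have less well known roles. Gimap8 was at 66.2, 70.4, 23.5, and 51.9 CPM in WT monocytes, 7.94, 11.1, 7.87, and 8.36 CPM in WT pre-RPMs, and 7.02, 14.7, 2.15, and 5.33 CPM in WT RPMs. Among Il1rl1-/- mice Gimap8 was at 67.0, 51.3, 20.3, and 35.5 CPM in monocytes, 3.09, 6.47, 3.29, and 1.68 CPM in pre-RPMs, and 6.30, 2.63, 2.20, and 4.28 CPM in RPMs. Gimap8, the member with several GTPase domains, again separated monocytes from the rest. Gimap9 was at 32.6, 27.3, 8.06, and 15.8 CPM in WT monocytes, 2.10, 6.32, 3.44, and 3.11 CPM in WT pre-RPMs, and 3.62, 6.34, 2.15, and 1.62 CPM in WT RPMs. Gimap9 of Il1rl1-/- mice was at 24.7, 20.5, 7.35, and 9.50 CPM in monocytes, 0.712, 2.90, 2.69, and 1.12 CPM in pre-RPMs, and 2.93, 1.81, 0, and 1.28 CPM in RPMs. Gimap9 did so as well, and its count of 0 in Il1rl1-/- RPMs of mouse 3 allows up to 0.660 CPM. Gimap7 was at 16.4, 22.1, 8.06, and 11.3 CPM in WT monocytes, 0.934, 2.37, 2.95, and 1.91 CPM in WT pre-RPMs, and 3.19, 6.75, 2.41, and 1.39 CPM in WT RPMs. Levels of Gimap7 in Il1rl1-/- mice were 22.5, 15.4, 6.27, and 7.44 CPM in monocytes, 0.949, 2.90, 1.19, and 1.497 CPM in pre-RPMs, and 2.70, 1.81, 0.660, and 1.07 CPM in RPMs. Monocytes stood above the other libraries of their genotype for Gimap7, although 1 WT RPM value came near the lowest of them.

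**Figure D1:**
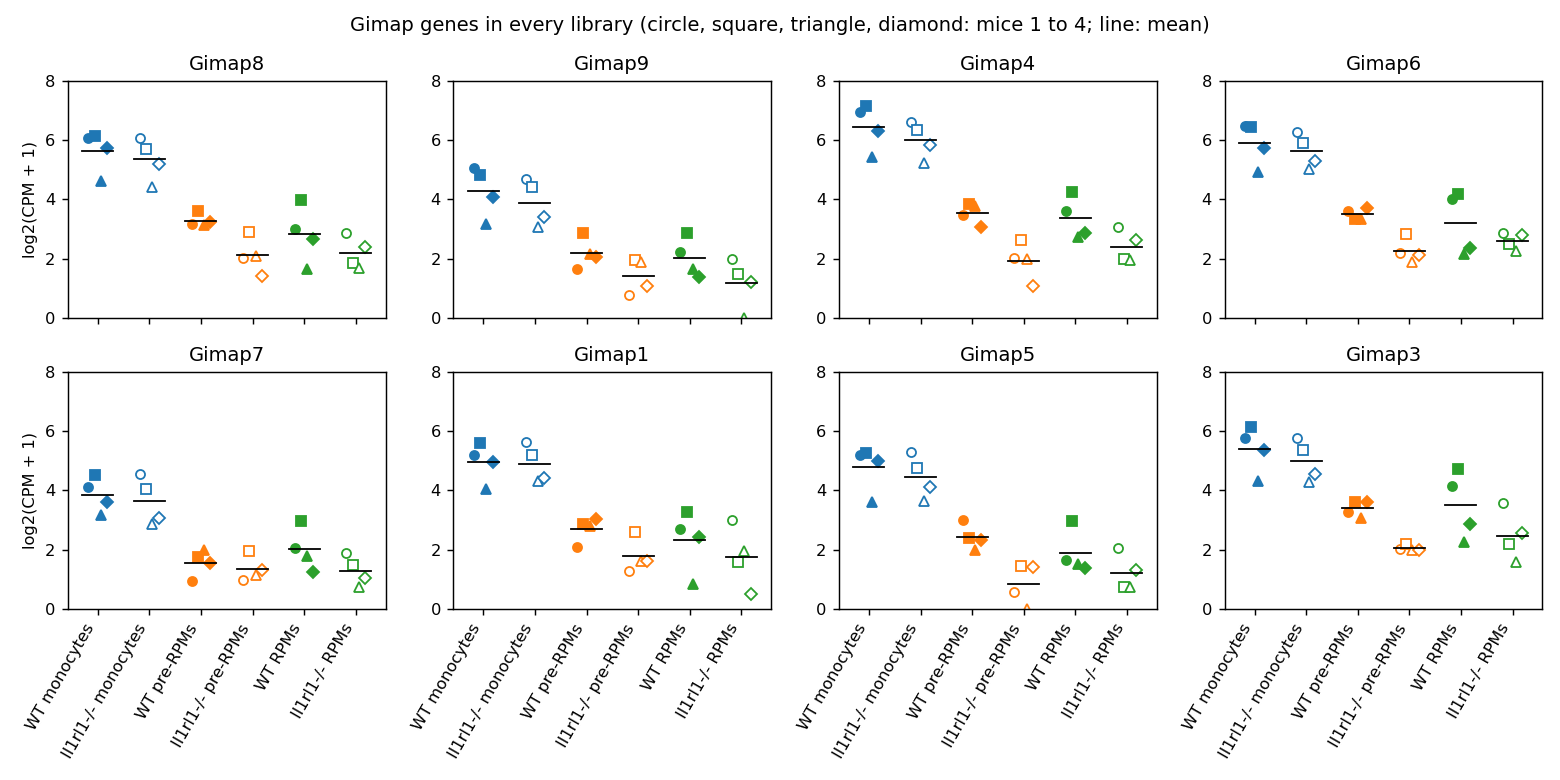
Each panel shows 1 member as log2(CPM + 1) in the 6 groups, with mice 1 to 4 as circle, square, triangle, and diamond, WT filled and Il1rl1-/- open, and a line at the mean of the log values. Monocyte libraries sit above the pre-RPM and RPM libraries of their genotype for every member, except for Gimap3 in WT mice, where 1 RPM library lies above the lowest monocyte library, and mouse 3 is lowest in both monocyte groups.

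Divided by exon length, Gimap4 was the highest member in all 6 groups. Its mean read density per exon length and depth (RPKM) were 52.3 ± 24.3 in WT monocytes, 5.91 ± 1.48 in WT pre-RPMs, and 5.60 ± 3.16 in WT RPMs (SD, n = 4). Gimap6 and Gimap3 followed in WT monocytes at 18.3 ± 8.15 and 17.7 ± 8.25 RPKM, and Gimap7 and Gimap5 were lowest at 6.22 ± 2.64 and 7.004 ± 2.93. The mix within the family was not the same in the 3 populations. The ratio of Gimap3 to Gimap4 per length, chosen after its values were seen, was 0.307, 0.353, 0.325, and 0.369 in WT monocytes, 0.613, 0.601, 0.419, and 1.08 in WT pre-RPMs, and 1.07, 0.993, 0.475, and 0.713 in WT RPMs. In Il1rl1-/- libraries it was 0.400, 0.355, 0.361, and 0.286 in monocytes, 0.713, 0.499, 0.713, and 1.90 in pre-RPMs, and 1.04, 0.871, 0.494, and 0.683 in RPMs. No pre-RPM or RPM library reached down to the monocyte range of its genotype, although the Il1rl1-/- pre-RPM values rest on 6 to 30 Gimap4 counts. Of all counts of the family, Gimap4 took 26.9% in WT monocytes and 18.4% in WT RPMs, and Gimap3 took 12.8% and 23.6%.

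The loss of family transcripts between WT monocytes and WT RPMs uses no pre-RPM library. It was called, with a log2 fold change beyond 1 in size and an adjusted p below 0.01, for 7 of 8 members, all lower, where 10.5% of the 11607 genes tested were called lower. The fall was largest for Gimap4 (log2 fold change -3.22 ± 0.43 SE, adjusted p = 0.000116) and Gimap5 (-3.21 ± 0.47, adjusted p = 0.000224). Gimap8, Gimap1, Gimap6, and Gimap9 had log2 fold changes of -2.84 ± 0.46, -2.71 ± 0.45, -2.66 ± 0.49, and -2.59 ± 0.48, and Gimap7 one of -2.05 ± 0.43 (adjusted p = 0.00233). Gimap3 had a log2 fold change of -1.80 ± 0.51 and an adjusted p of 0.0132, above the limit of 0.01. With mouse as a replicate block it was called (log2 fold change -1.96, adjusted p = 0.000113), since libraries of the same number came from the same mouse. The median over the 8 members was -2.68, against -0.01 over all genes tested.

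In the Il1rl1-/- libraries the same step was called lower for 8 of 8 members, where 11.6% of 11633 genes were called lower. Log2 fold changes ran from -3.97 ± 0.49 for Gimap5 and -3.89 ± 0.35 for Gimap4 to -2.68 ± 0.44 for Gimap3, with adjusted p values of 2.79e-05, 1.86e-06, and 0.000292. Gimap8, Gimap1, Gimap9, Gimap6, and Gimap7 lay between, at -3.51 ± 0.40, -3.35 ± 0.50, -3.32 ± 0.56, -3.31 ± 0.30, and -3.01 ± 0.49. The difference between the genotypes in this step, tested as an interaction, was called for 0 of 8 members, where 0.0318% of 12592 genes were called at an adjusted p under 0.05. Its log2 values were -0.96 to -0.65 with SE of 0.62 to 0.85, 0 members had an unadjusted p under 0.05, and DESeq2 also called 0. Mouse by mouse, the summed family was 4.81 to 10.0 times higher in monocytes than in RPMs of the same WT animal and 8.39 to 16.4 times higher in Il1rl1-/- animals.

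The step from monocytes to pre-RPMs shares the pre-RPM libraries behind the choice of the family, and is given without p values. In WT mice 8 of 8 members met the call rule, all lower, where 3.25% of 11091 genes did, with log2 fold changes from -3.15 ± 0.35 for Gimap4 to -2.25 ± 0.34 for Gimap3. In Il1rl1-/- mice 8 of 8 also did, where 3.88% of 11196 genes did, from -4.42 ± 0.38 for Gimap4 and -4.35 ± 0.52 for Gimap5 to -2.87 ± 0.48 for Gimap7. The ranges of monocytes and pre-RPMs did not overlap for any member in either genotype, and how many of all genes did so was not computed. The step from pre-RPMs to RPMs uses those pre-RPM libraries too and is likewise a description. There 0 of 7 tested members met the rule in WT mice and 0 of 5 in Il1rl1-/- mice, where 24.7% and 26.0% of genes did. Gimap7 did not pass the filter on low counts in WT, nor did Gimap5, Gimap7, and Gimap9 in Il1rl1-/- mice. Log2 fold changes ran from -0.57 to 0.42 (SE 0.32 to 0.44) and from -0.03 to 0.66 (SE 0.29 to 0.57). The number of members with an unadjusted p under 0.05 was 0 in both, as was the number called by DESeq2, and for the same reason nothing is read from these counts.

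**Figure D2:**
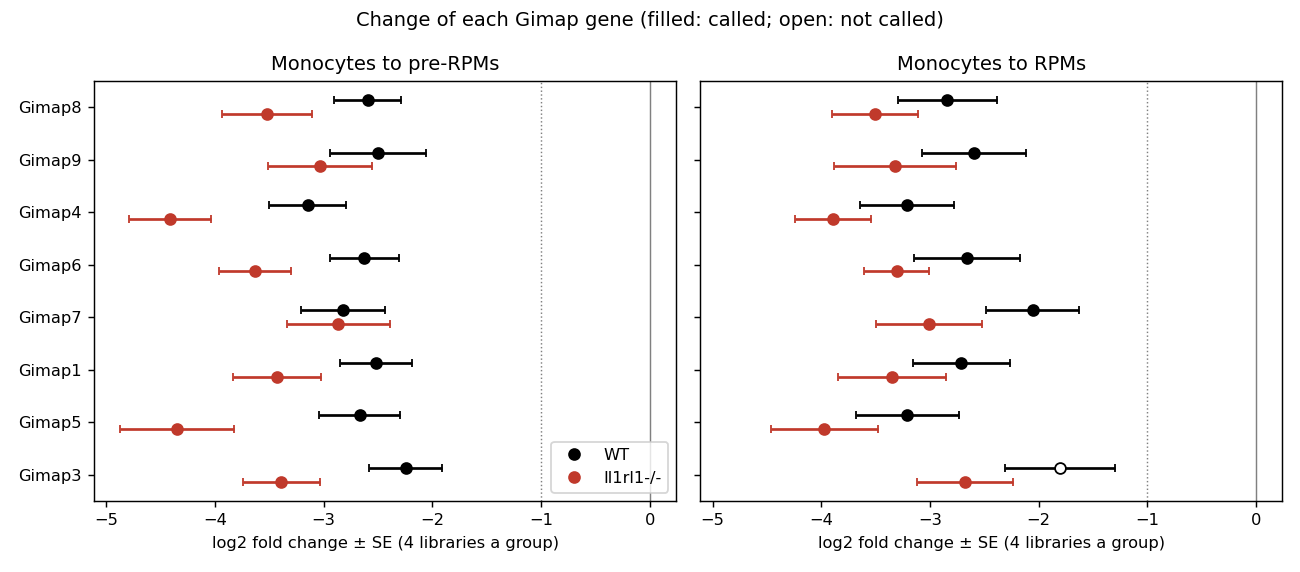
Log2 fold change and its SE for each member, from monocytes to pre-RPMs (left) and to RPMs (right), in WT (black) and Il1rl1-/- (red) mice, with 4 libraries a group and the dotted line at the call limit of -1. All values lie left of that line, and Gimap3 in WT RPMs is the 1 open point, not called.

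Between genotypes, members were lower on average in Il1rl1-/- than in WT libraries in each population, but the size and the overlap of the groups differed. In monocytes the groups overlapped for 8 of 8 members. The log2 fold changes were -0.52 to -0.09 (SE 0.36 to 0.46), 0 of 8 members were called, where 0.0614% of 11405 genes were at an adjusted p under 0.05, 0 had an unadjusted p under 0.05, and DESeq2 called 0. With mice of the same number taken as a replicate block, 27 genes rather than 7 were called, no member among them. In RPMs the groups overlapped for 8 of 8 members too, and the mean was 1.58 to 2.44 times higher in WT libraries. The 5 members with enough counts to be tested had log2 fold changes from -1.35 ± 0.55 (Gimap3) and -1.22 ± 0.40 (Gimap4) to -0.74 ± 0.62 (Gimap1), and 0 were called, where 0.233% of 11150 genes were. Gimap4, Gimap3, and Gimap6 had unadjusted p values of 0.00911, 0.0282, and 0.0416 by edgeR and adjusted p values of 0.493, 0.646, and 0.659, and DESeq2 called 0. With every gene of at least 1 count kept, Gimap3, Gimap4, Gimap6, and Gimap8 were called, in a fit that called 272 of 32410 genes against 26 of 11150. With the replicate block 81 genes were called, no member among them. Gimap5, Gimap7, and Gimap9 did not pass the filter on low counts.

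In pre-RPMs, the contrast known when the family was chosen, 5 of 8 members had WT libraries wholly above the Il1rl1-/- ones, and means were 1.25 to 4.72 times higher in WT. How many of all genes had ranges apart between genotypes was not computed for any population. Of the 7 members tested, 3 met the call rule, Gimap3 (log2 fold change -1.59 ± 0.23), Gimap4 (-1.79 ± 0.32), and Gimap6 (-1.34 ± 0.25), beside 0.383% of 10698 genes called lower. Gimap5, Gimap8, Gimap1, and Gimap9 had -2.04 ± 0.47, -1.23 ± 0.31, -1.01 ± 0.36, and -0.99 ± 0.43, and Gimap7 was not tested. As this is the contrast the family was picked on, nothing is read from either count. The number of calls also depended on the fit, being 0 with all 24 libraries in a single fit, 5 with the replicate block, and 2 to 4 with a library left out.

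Markers of natural killer (NK) cells were, like the family, highest in monocytes. In WT mice they also fell from pre-RPMs to RPMs, where the family levels overlapped. The summed CPM of 13 NK markers, among them Klrb1c, which encodes NK1.1, Ncr1, and the granule genes Prf1 and Gzma, was 2273, 2668, 851, and 1540.2 in WT monocytes, 169.5, 218, 149, and 121 in WT pre-RPMs, and 78.7, 111, 40.2, and 43.6 in WT RPMs. It was 2271, 1657, 732, and 1134 in Il1rl1-/- monocytes, 44.4, 91.5, 58.5, and 47.5 in Il1rl1-/- pre-RPMs, and 46.2, 44.0, 22.9, and 28.2 in Il1rl1-/- RPMs. None of the 13 markers was at 0 over all 4 libraries of any group. NK sums of the genotypes overlapped in monocytes and RPMs and did not overlap in pre-RPMs. From monocytes to RPMs 13 of 13 markers were called lower in both genotypes, with a median log2 fold change of -4.88 in WT and -5.89 in Il1rl1-/- mice, and from monocytes to pre-RPMs 13 of 13 as well (-3.52 and -4.89). Of all genes, 10.5% and 11.6% were called lower to RPMs and 3.25% and 3.88% to pre-RPMs. The medians of the family to RPMs were -2.68 and -3.34. From pre-RPMs to RPMs, 5 of 11 tested NK markers were called lower and 0 higher in WT mice (median -1.24). In Il1rl1-/- mice 2 of 7 were called lower and 1 higher (median -0.79). Of all genes, 10.7% and 11.5% were called lower in this step and 14.0% and 14.5% higher. Of the family, 0 of 7 and 0 of 5 were called. NK sums of pre-RPMs and RPMs were apart in WT mice and overlapped in Il1rl1-/- mice. Between genotypes, 5 of 10 tested NK markers were called lower in Il1rl1-/- pre-RPMs, beside 0.383% of genes. In monocytes 0 of 13 were called and in RPMs 0 of 7, where 0.0614% and 0.233% of genes were. The pre-RPM contrast is the one the family was picked on, so nothing is read from its count.

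Within the monocyte libraries the ratio of the family to the NK markers varied little. The family sum divided by the NK sum was 0.200, 0.187, 0.185, and 0.202 in WT monocytes and 0.189, 0.198, 0.206, and 0.182 in Il1rl1-/- monocytes, while the family sum itself ran from 157 to 499.7 CPM among WT mice. It was 0.302, 0.294, 0.350, and 0.457 in WT pre-RPMs and 0.369, 0.371, 0.306, and 0.327 in Il1rl1-/- pre-RPMs, and 0.819, 0.937, 0.553, and 0.713 and 1.01, 0.455, 0.654, and 0.871 in the RPMs of the 2 genotypes. Pre-RPM ratios of the genotypes overlapped, RPM ratios did too, and the 3 populations did not overlap within a genotype. Within monocytes the ratio of the family to 13 T cell markers, among them Cd3e and Cd28, also varied less than the family sum. It was 6.66, 6.34, 5.88, and 7.23 in WT monocytes and 5.05, 5.08, 5.50, and 6.20 in Il1rl1-/- monocytes. Across the populations, however, the T cell marker sum took another course, lower by mean in pre-RPMs than in monocytes but highest by mean in RPMs. Their sum was 68.2, 78.8, 26.7, and 43.0 CPM in WT monocytes, 34.6, 29.8, 17.5, and 33.5 in WT pre-RPMs, and 118, 123, 50.4, and 63.5 in WT RPMs, and 27.5 to 85.0, 15.5 to 29.1, and 55.7 to 98.8 CPM in the Il1rl1-/- groups. From monocytes to pre-RPMs 2 of 8 tested T cell markers were called lower in WT and 3 of 8 in Il1rl1-/- mice, 0 higher, where 3.25% and 3.88% of genes were called lower. From WT monocytes to RPMs 3 of 12 tested were called higher (Cd3e, Cd3g, and Cd4) and 2 lower (Trbc1, Cd28), beside 13.4% and 10.5% of genes. In Il1rl1-/- mice 1 of 11 was called higher and 2 lower, beside 14.3% and 11.6%. Of B cell markers, 0 of 9 were called from WT monocytes to RPMs. The B cell sum was 34.8 to 123 CPM in WT monocytes, 63.8 to 87.4 in WT pre-RPMs, and 42.1 to 141 in WT RPMs, and 33.3 to 87.0, 30.2 to 62.3, and 46.2 to 79.3 in Il1rl1-/- groups. In Il1rl1-/- against WT pre-RPMs 2 of 9 B cell markers were called lower (Ms4a1, Pax5), beside 0.383% of genes, and nothing is read from that count either. The part of these cells in the levels of the family was not tested.

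**Figure D3:**
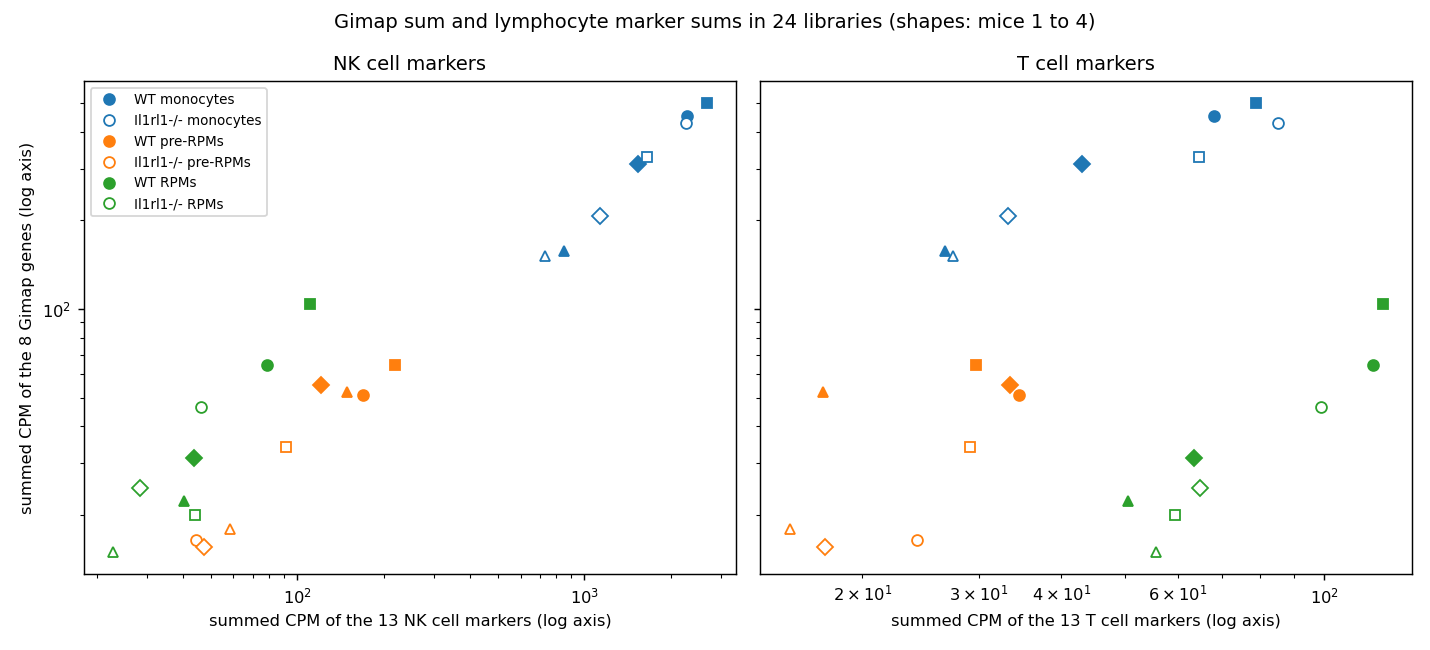
Summed CPM of the 8 members against that of the 13 NK cell markers (left) and the 13 T cell markers (right), both axes logarithmic, 1 point per library, coloured by population, WT filled and Il1rl1-/- open. Monocyte libraries run along 1 line with the NK markers and also rise with the T cell markers. RPM libraries hold T cell markers at 50.4 to 123 CPM in WT mice with family sums of 22.3 to 104 CPM.

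RPM markers marked the RPM libraries, whereas the monocyte marker sum was not highest in the monocyte libraries. The sum of 10 RPM markers, among them Spic, Vcam1, and Hmox1, was 42.9 to 83.4 CPM in WT monocytes, 115 to 308 in WT pre-RPMs, and 6488 to 8289 in WT RPMs, with 10 of 10 called higher in RPMs. The sum of 9 monocyte markers was 872, 665, 1616, and 1261 CPM in WT monocytes, 1767, 1484, 1874, and 1461 in WT pre-RPMs, and 1419 to 1682 CPM in WT RPMs. Csf1r, the receptor for macrophage colony-stimulating factor, made up most of it in RPMs, at 112 to 381 CPM in WT monocytes and 1319 to 1619.8 CPM in WT RPMs, and Ccr2, the chemokine receptor of blood monocytes, was at 149 to 428, 484 to 595, and 2.15 to 14.3 CPM in WT monocytes, pre-RPMs, and RPMs. Mouse 3, with the least family and NK signal, held the most monocyte signal of the WT monocyte libraries. In Il1rl1-/- mice the monocyte marker sum was 861, 1083, 1728, and 1439 CPM in monocytes, again highest in mouse 3, 1668 to 1973 in pre-RPMs, and 1594 to 1800.3 in RPMs. From WT monocytes to RPMs, 4 of 4 tested plasma cell markers were called lower and 0 higher, 7 of 7 tested neutrophil markers were called lower and 0 higher, 3 of 5 tested basophil and mast cell markers were called lower and 0 higher, 0 of 2 tested eosinophil markers were called lower and 1 higher, 0 of 2 tested endothelial cell markers were called lower and 2 higher, and 7 of 9 monocyte markers lower and 1 higher. Of all genes tested in this step, 10.5% were called lower and 13.4% higher, and lists with few tested genes cannot be told from those shares. The 10 endothelial markers summed to 1.61 to 6.02 CPM in WT monocytes and 187 to 233 in WT RPMs. Of these 10, 5 exceeded 3 counts in any WT RPM library and 1 was at 0 in all of them, so the sum rests on part of the list.

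The number 3 libraries were often the lowest of their group. Mouse 3 was lowest for 8 of 8 members in WT monocytes and for 8 of 8 in Il1rl1-/- monocytes, and lowest for 5 and 6 of 8 in the WT and Il1rl1-/- RPMs, but for 4 and 3 of 8 in the WT and Il1rl1-/- pre-RPMs. The highest library was the same for 8 of 8 members in 4 groups, mouse 2 in WT RPMs and Il1rl1-/- pre-RPMs and mouse 1 in Il1rl1-/- monocytes and RPMs. With the number 3 libraries left out together, an alternative chosen after seeing the data, from monocytes to RPMs 8 of 8 members were called lower in both genotypes, Gimap3 now among the WT calls, and 0 of 8 in either genotype comparison of monocytes or RPMs. Across all 24 libraries the log2 CPM of each member correlated with the mean log2 CPM of the other 7 at r = 0.936 (Gimap1) to 0.986 (Gimap8). After each group's mean was taken out, r was 0.698 (Gimap1) to 0.924 (Gimap3). Libraries share depth and makeup, so these are descriptions.

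The non-members most like the family, by Pearson r of log2 CPM with its mean over the 24 libraries among 11665 genes, are known mainly from lymphocytes, apart from Ablim1. They were Lck, a Src-family kinase of T and NK cells (r = 0.983), Il2rb, a chain of the IL-2 and IL-15 receptors that is also in the NK list (r = 0.982), Ptprcap, a partner of CD45 (r = 0.980), Cd2, an adhesion receptor of T and NK cells (r = 0.979), and Ablim1, an actin-binding protein (r = 0.978). With the group means taken out, r was 0.920, 0.900, 0.868, 0.884, and 0.955. Lck was at 76.3, 110.1, 38.92, and 60.5 CPM in WT monocytes, 10.04, 11.3, 7.87, and 7.17 in WT pre-RPMs, and 13.8, 22.3, 3.76, and 5.57 in WT RPMs, with mouse 3 lowest in the first and last of these. Ablim1 was at 103, 136, 40.8, and 79.0 CPM in WT monocytes, 23.3, 25.3, 21.4, and 25.6 in WT pre-RPMs, and 33.4, 46.2, 12.6, and 24.6 in WT RPMs, with the same mouse lowest.

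**Figure D4:**
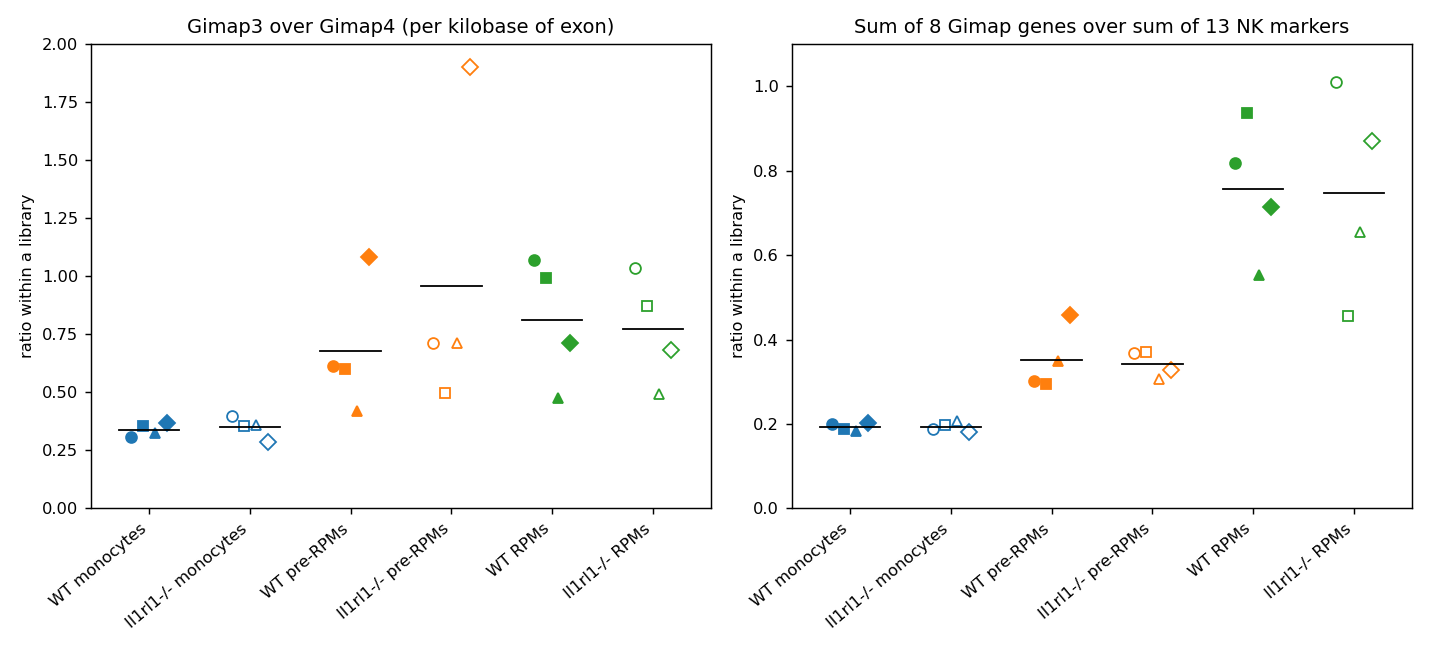
Ratios within each library, by group, with mice 1 to 4 as circle, square, triangle, and diamond and a line at the mean. Left, Gimap3 over Gimap4 per length, lowest in both monocyte groups. Right, the sum of the 8 members over that of 13 NK markers, 0.182 to 0.206 in the monocyte libraries and higher in pre-RPMs and RPMs.

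Neighbouring genes did not all follow the members. Of 40 other genes within 250000 bases, 9 had enough counts to be tested between WT monocytes and RPMs. Of these, 1 was called higher and 3 lower, where 13.4% and 10.5% of all genes were. In Il1rl1-/- mice 0 of 9 tested were called higher and 4 lower, where 14.3% and 11.6% of genes were. The fold changes to RPMs that follow are for WT mice. The antisense Gimap1os, named for its overlap with Gimap1, fell with the members (log2 fold change -3.47 ± 0.53, adjusted p = 0.000295) and lay at 17 to 94 counts in WT monocytes and 1 to 6 in WT RPMs. On the Gimap8 side, Atp6v0e2, a subunit of the proton pump of acid vesicles, rose (1.47 ± 0.39, adjusted p = 0.00964), and Krba1, Zfp467, Zfp862-ps, Lrrc61, and Repin1 were not called, at -0.50 ± 0.41, 0.14 ± 0.31, -0.04 ± 0.35, -0.63 ± 0.23, and 0.50 ± 0.24. On the Gimap3 side lie Tmem176a and Tmem176b, cation channels of myeloid cells. Both fell in RPMs (-3.62 ± 0.38 and -3.25 ± 0.41, adjusted p = 1.74e-05 and 7.87e-05) but were highest in pre-RPMs. Tmem176b was at 36.9, 28.5, 62.6, and 42.6 CPM in WT monocytes, 126, 83.0, 106, and 91.0 in WT pre-RPMs, and 5.96, 7.97, 1.34, and 2.09 in WT RPMs, with mouse 3 highest, not lowest, among monocytes. Its log2 fold change from monocytes to pre-RPMs was 1.25 ± 0.22 in WT and 1.64 ± 0.17 in Il1rl1-/- mice, opposite in sign to the members.

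**Figure D5:**
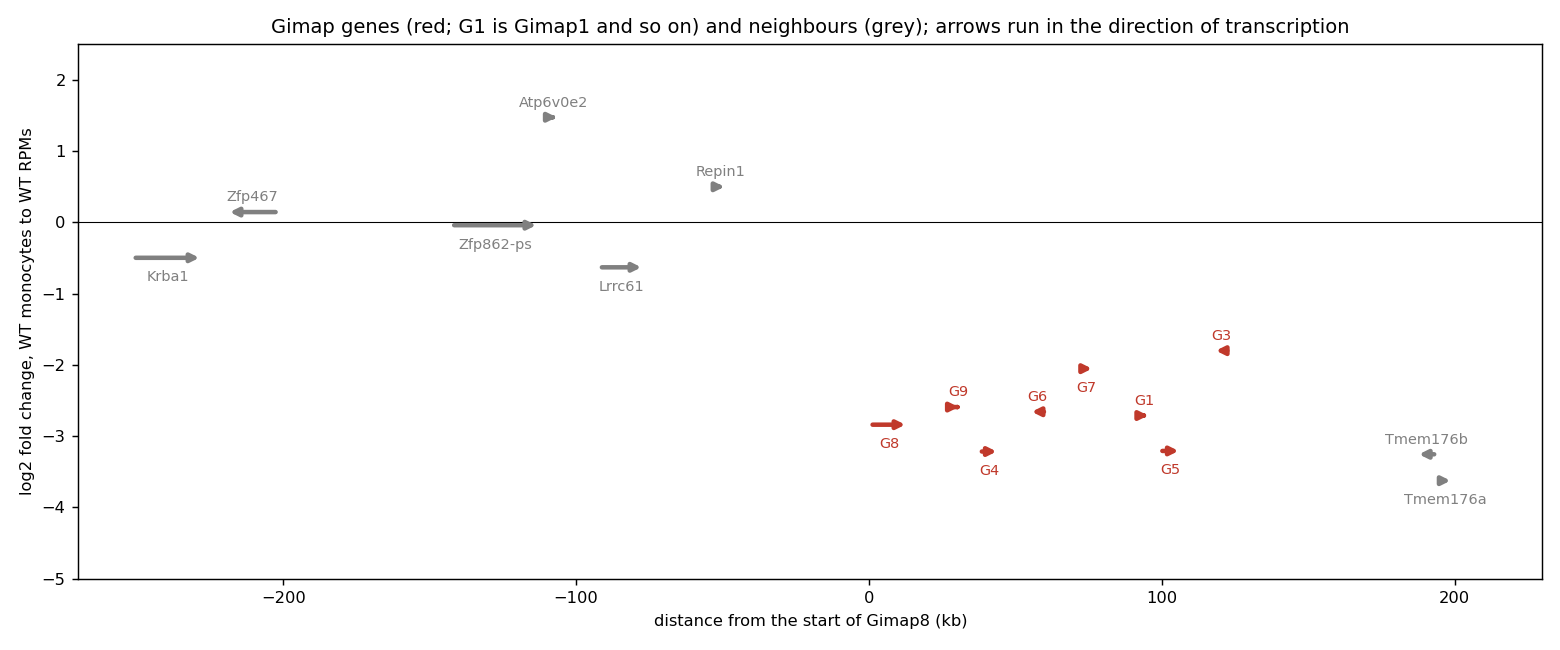
Genes of the cluster (red, with G1 for Gimap1 and so on) and the neighbours that passed the level limit (grey), placed by distance from the start of Gimap8 in kilobases and by log2 fold change from WT monocytes to WT RPMs, with arrows along transcription. All red arrows lie below 0, as do Tmem176a and Tmem176b, and Atp6v0e2 lies above.

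Genes linked to GIMAP proteins, 13 members of the BCL2 family, autophagy genes, and other partners, moved in both directions. From WT monocytes to RPMs 3 of 13 were called higher and 2 lower, where 13.4% of all genes tested were called higher and 10.5% lower. Bcl2, the survival factor of lymphocytes, fell (-2.96 ± 0.40, adjusted p = 0.000117), as did Bcl2l11, which encodes the death factor BIM (-1.04 ± 0.12). Bcl2l1, which encodes BCL-XL, rose (2.25 ± 0.56), and so did the autophagy genes Gabarapl1 (1.33 ± 0.15) and Map1lc3a (1.03 ± 0.17). In Il1rl1-/- mice Bcl2, Bcl2l11, Bcl2l1, and Gabarapl1 were called in the same directions (-3.31 ± 0.36, -1.24 ± 0.11, 2.32 ± 0.53, and 1.97 ± 0.22). From monocytes to pre-RPMs Bcl2 was the 1 gene of the list called, -1.73 ± 0.28 in WT and -1.88 ± 0.25 in Il1rl1-/- mice. None of the 13 was called between genotypes in any population. The median log2 fold change of the list from WT monocytes to RPMs was 0.10.

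Of 12 lymphoid transcription factors, 6 were called lower and 0 higher from monocytes to RPMs in each genotype, beside 10.5% and 11.6% of genes. In WT mice these were Klf2 (-3.33 ± 0.29), Gata3 (-3.31 ± 0.55), Runx3 (-3.28 ± 0.41), Ikzf3 (-2.84 ± 0.45), Ets1 (-1.96 ± 0.34), and Lef1 (-1.77 ± 0.44), and in Il1rl1-/- mice they were called too (-3.92 ± 0.28, -3.61 ± 0.52, -4.20 ± 0.34, -3.55 ± 0.32, -2.0 ± 0.29, and -1.77 ± 0.45). Klf2 and Runx3 were not among the genes called from monocytes to pre-RPMs in WT mice, where 4 of 12 were called lower, Gata3 (-2.97 ± 0.38), Ets1 (-2.23 ± 0.26), Lef1 (-2.13 ± 0.41), and Ikzf3 (-1.93 ± 0.22). Between genotypes 0 of 12 were called in monocytes and 0 of 11 in RPMs by edgeR. In pre-RPMs Ets1 alone of 11 tested met the rule, lower in Il1rl1-/- libraries (-0.89 ± 0.19), beside 0.383% of genes called lower. The study had reported Ets1 as lower in these cells, and the contrast is a description here, so nothing is read from that call.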

How the data were processed

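RNA was measured in 24 libraries of sorted mouse spleen cells, 4 mice in each of 6 groups, grouped by the labels. The cells were lysed and frozen before extraction, and libraries were made with a stranded total RNA kit (SMARTer pico v2). Deposited values were whole-number counts per gene, made by the authors by trimming (the submitters' notes list cutadapt 2.8), aligning with STAR 2.5.1 to GRCm38, and counting exons by gene name and strand with featureCounts, which drops reads shared by genes. The notes name another build, GRCh38, and the gene coordinates used here are those of GRCm38 in the files. The ATAC-seq libraries were not analysed here.

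Each comparison was fitted on its own libraries over all genes with edgeR 4.0.16 quasi-likelihood (R 4.3.3, TMM scaling, filterByExpr, Benjamini-Hochberg adjustment). Cell types were called at an adjusted p under 0.01 with an absolute log2 fold change above 1, and genotypes, and their interaction, at an adjusted p under 0.05. Levels are TMM-scaled CPM, with a prior count of 2 for log2 CPM, and RPKM divides by exon length. On simulated counts for WT monocytes to RPMs (11417 genes), 68 of 100 genes changed 2-fold and 96 of 100 changed 4-fold had an adjusted p under 0.05, with 8 false calls. No fold limit was applied there, and the same dispersion was set for every gene. These shares therefore do not describe the stricter rule for cell types. Depth was 3562367 to 6559454 counts per library, and intervals and floors cover counting error only.

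The members and all gene lists were chosen with earlier results of these data known. Named genes were the 8 members, neighbours within 250000 bases with a mean log2 CPM of at least 1, up to 6 genes of each pathway list per comparison that passed a test, and the 5 genes most alike. Within a genotype the labels give libraries of the same number to the same mouse, and deviations from group means of such pairs correlated at r = 0.0349 to 0.156 in WT monocytes and RPMs. Between genotypes the animals differ, and same-numbered pairs correlated at 0.118 to 0.452 in monocytes and 0.149 to 0.182 in RPMs, so a replicate block was tried as an alternative. Other alternatives were a fit keeping any gene with 1 count or more, DESeq2 1.42.0, size factors by RLE, all 24 libraries in a single fit, Gm42418 left out, and each library left out.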

Additional observations from a re-analysis of the deposited data

Results flagged for a closer look

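Among 54 groups of 4 libraries examined, 4 had a single library far from the other 3, by Dixon's test at 95%, where chance gives about 1 group in 20. Gimap8 was at 11.1 CPM in WT pre-RPMs of mouse 2, the next being 8.36. Gimap5 was at 6.75 CPM in WT RPMs of mouse 2, the next being 2.13. Gimap3 was at 3.58 CPM in Il1rl1-/- pre-RPMs of mouse 2, the next being 3.09. The sum of the 8 members was 33.9 CPM in the same library, the next being 17.9. All were the highest of their group and all carried number 2, from WT or Il1rl1-/- animals.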

How the results depend on the processing

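Recomputing member fold changes under other settings left 1003 with their direction and side of the threshold, 19 newly past it, 17 no longer past it, and 33 with the other sign, none of which had been called. The falls from monocytes to RPMs kept their direction under every setting run. Gimap3 in WT mice was called under DESeq2, with every gene of at least 1 count, with all 24 libraries in a single fit, with the replicate block, and without replicate 3 of WT monocytes (adjusted p = 0.00340) or replicate 2 of WT RPMs (adjusted p = 0.00440), with adjusted p over its alternatives from 5.04e-23 to 0.0444. Gimap7 in WT mice lost its call without replicate 1 of WT RPMs (adjusted p = 0.0101). From WT monocytes to pre-RPMs 6 to 8 members met the rule with a library left out, Gimap9 missing it without WT monocytes 1 or WT pre-RPMs 1, 3, or 4 and Gimap3 without WT pre-RPMs 1 or 4. In Il1rl1-/- mice 7 to 8 did, Gimap7 missing it without pre-RPMs 1 or 4. From WT pre-RPMs to RPMs 0 to 1 did, Gimap5 (-1.31) without WT RPMs replicate 2.

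For Il1rl1-/- against WT pre-RPMs, 3 members met the rule, but 5 with every gene of at least 1 count or with the replicate block, 4 by DESeq2, 0 with all 24 libraries in a single fit, which called 17 genes in all, and 2 to 4 with a library left out, Gimap6 missing it without WT or Il1rl1-/- pre-RPMs 1 or 4. Gimap4 missed it without the number 3 libraries. The block called 145 genes there against 59. Pair correlations in pre-RPMs were 0.0452 to 0.155, so numbers were not taken to pair those mice. The block changed no other member call than those given here and in the report. For Il1rl1-/- against WT RPMs 4 members were called with every gene of at least 1 count, a fit that tested more low genes. The cause of these changes was not tested. With Gm42418 out of the library sizes the family sums rose in every group, and the order of the groups by mean stayed the same. They averaged 514, 82.2, and 79.6 CPM in WT monocytes, pre-RPMs, and RPMs and 398, 31.2, and 38.2 CPM in the corresponding Il1rl1-/- groups. The rise was less than 1 SD in WT RPMs, Il1rl1-/- monocytes, and Il1rl1-/- RPMs.

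Sign changes were all in uncalled values. From WT pre-RPMs to RPMs, log2 fold changes with libraries left out ran from -0.869 to 0.00577 for Gimap8, -0.608 to 0.239 for Gimap9, -0.522 to 0.170 for Gimap4, -0.441 to 0.203 for Gimap6, -0.651 to 0.108 for Gimap1, -0.125 to 0.705 for Gimap3, the number 3 libraries left out together included. From Il1rl1-/- pre-RPMs to RPMs they ran from -0.345 to 0.477 for Gimap8 and -0.709 to 0.612 for Gimap1, and Gimap8 was at 0.00938 by DESeq2 and 0.0189 with all 24 libraries, and Gimap1 at -0.0812 with the block. In Il1rl1-/- against WT monocytes they ran from -0.580 to 0.0773 for Gimap7 and -0.385 to 0.146 for Gimap1. Outside monocytes depth limits the family, as Gimap4 rested on 6 to 30 counts in Il1rl1-/- pre-RPMs.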
